A study of Mus musculus with 6 samples.

Results

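The Krueppel-like factors are zinc finger transcription factors. The 8 genes described here, Klf2, Klf3, Klf4, Klf5, Klf6, Klf9, Klf10 and Klf13, were taken by gene symbol from a table of 22602 genes, which lists 17 Klf genes in all. Their transcripts were measured by mRNA sequencing in mouse embryonic stem (ES) cells that overexpress Sim2, a bHLH-PAS transcription factor, and in the parental line. The Sim2 group was 3 clones, A6, B8 and C4, each carrying a Flag-tagged mouse Sim2 transgene at the ROSA26 locus behind a tetracycline-repressed promoter, and each sequenced once. The EB3 group was 3 cultures of the EBRTcH3 (EB3) parental line without that transgene, EB3-0, EB3-1 and EB3-2. Both groups were grown on gelatin with serum and leukemia inhibitory factor (LIF), and RNA was taken after 26 h without tetracycline. Since every Sim2 library came from a selected clone and every EB3 library from the parental line, an effect of the transgene and a difference between clones and their parent cannot be told apart. RNA was extracted from whole cultures, so fewer cells of a type and less RNA per cell cannot be told apart either.

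A Krueppel-like factor binds GC-rich and CACCC sequences through 3 zinc fingers near its end, and the rest of the protein decides whether it activates or represses. In mouse ES cells KLF2, KLF4 and KLF5 share many binding sites with OCT4, SOX2 and NANOG and can stand in for each other in keeping cells undifferentiated. LIF acts through STAT3 to sustain Klf4. KLF3 is a repressor that recruits CtBP, KLF9, KLF10 and KLF13 are GC-box factors that can recruit the SIN3A corepressor, and KLF6 is a widely expressed activator.

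Klf5 and Klf2 are the genes the results turn on, and Klf4 completes the ES cell trio. The 250 bases upstream of their listed starts are therefore printed here, 5′ to 3′ on the gene's own strand from mouse build mm9. They lie at chr8:74842711-74842960 (Klf2, plus strand), chr4:55545348-55545597 (Klf4, minus strand) and chr14:99697660-99697909 (Klf5, plus strand). Capitals mark the GC box GGGCGG and the CACCC box, each searched on both strands (CCGCCC and GGGTG are their reverse forms), and matches of both kinds may share bases.
Klf2: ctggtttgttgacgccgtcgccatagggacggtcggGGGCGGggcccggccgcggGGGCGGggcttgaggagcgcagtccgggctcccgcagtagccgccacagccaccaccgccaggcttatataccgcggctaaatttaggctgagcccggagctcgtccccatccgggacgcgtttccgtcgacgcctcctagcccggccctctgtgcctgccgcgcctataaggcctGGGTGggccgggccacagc
Klf4: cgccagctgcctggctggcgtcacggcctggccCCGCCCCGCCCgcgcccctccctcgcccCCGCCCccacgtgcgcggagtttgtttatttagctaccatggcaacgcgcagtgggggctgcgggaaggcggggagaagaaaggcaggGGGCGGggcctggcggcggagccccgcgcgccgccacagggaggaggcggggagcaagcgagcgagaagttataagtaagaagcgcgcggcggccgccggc
Klf5: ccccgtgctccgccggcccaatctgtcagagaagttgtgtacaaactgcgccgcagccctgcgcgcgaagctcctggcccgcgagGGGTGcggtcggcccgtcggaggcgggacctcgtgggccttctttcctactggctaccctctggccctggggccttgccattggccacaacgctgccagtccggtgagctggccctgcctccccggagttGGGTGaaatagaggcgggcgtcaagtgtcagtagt
The Klf2 stretch held 2 GC boxes and 1 CACCC box, the Klf4 stretch 4 GC boxes and no CACCC box, and the Klf5 stretch 2 CACCC boxes and no GC box. A GC box was found upstream of 6 of the 8 genes and of 43.4% of all 22602 listed genes, and a CACCC box upstream of 5 of the 8 and of 52.8% of all. ACGTG, the core bound by many bHLH-PAS dimers with ARNT, was upstream of 3 of the 8 (Klf4, Klf6 and Klf9) and of 17.8% of all listed genes. It was not in the Klf2 or Klf5 stretch. In the annotation Klf2 starts at 74842932, so the end of its stretch, with the CACCC match, lies inside the annotated gene. Parts of the Klf3 and Klf10 stretches do too. These are matches of letters only.

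Levels are given in RPKM, reads divided by the length of the cDNA and by the total of the library, so they can be compared between genes. A gene was tested when its mean over the 6 libraries was at least 1 RPKM, which kept 11595 genes, all 8 among them. Depth ranged from 25095861 to 28269340 reads per library, and the 8 genes had between 1276 (Klf6 in EB3-0) and 10156 reads (Klf2 in EB3-0). Sim2 itself, the check of the labels, was at 168 to 212 RPKM in the clones and no higher than 0.1298 RPKM in EB3. EB3-0 stood apart from EB3-1 and EB3-2, which were close to each other, so an SD over the 3 EB3 cultures rests mainly on EB3-0, and values without it are given where they change a call.

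Klf5 was the most abundant Krueppel-like factor in the clones, and Klf2 the most abundant in EB3. KLF5 is needed in the early embryo for the inner cell mass and the trophectoderm and supports proliferation of ES cells. Its transcript (chr14:99697910-99712628) was at 146 RPKM in A6, 160 RPKM in B8 and 155 RPKM in C4, against 68.5 RPKM in EB3-0, 98.0 RPKM in EB3-1 and 99.6 RPKM in EB3-2. Every clone lay above every EB3 culture, and EB3-0 was the lowest of the 6. The mean of the clones was 153 ± 6.83 RPKM and that of EB3 88.7 ± 17.5 RPKM (SD, n = 3 each), which gives a ratio of 1.73. On the scale of log2(RPKM + 0.5), used for all fold changes here, the difference was 0.81 ± 0.15 (SE), with a 95% confidence interval of 0.47 to 1.14. The limma fit gave an unadjusted p of 0.000491 and an adjusted p of 0.0606, just outside the threshold of 0.05. The study's own test of the read counts (edgeR) did list Klf5 as changed, with a log2 fold change of 0.81. Its false discovery rate there was far below 0.05, so the 2 tests differ by more than the threshold shows. An exact permutation of the libraries (two-sided) gave p = 0.1, and 3 against 3 can give none smaller. By unadjusted p, Klf5 was number 94 of 11595 genes. Without EB3-0 the difference was smaller but more even, 0.63 ± 0.06, and passed the threshold (limma, adjusted p = 0.0128). In that fit 5.99% of all tested genes were called, against 0.699% with all 6 libraries.

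Klf2, which also keeps T cells quiescent and shapes the endothelium, lay on the other side. Its transcript (chr8:74842961-74845553) was at 115 RPKM in A6, 125 RPKM in B8 and 131 RPKM in C4, against 205 RPKM in EB3-0, 152 RPKM in EB3-1 and 158 RPKM in EB3-2. All 3 clones were below all 3 EB3 cultures, and EB3-0 was again the extreme, here the highest. The means were 124 ± 8.36 RPKM and 172 ± 29.0 RPKM (SD, n = 3 each), and the log2 difference was -0.46 ± 0.13 with an interval of -0.75 to -0.17. It did not pass the threshold with all libraries (limma, adjusted p = 0.127) or without EB3-0 (-0.33 ± 0.07, adjusted p = 0.0529).

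Klf4, one of the factors that reprogram fibroblasts to pluripotency, was at 53.9 RPKM in A6, 51.8 RPKM in B8 and 63.4 RPKM in C4, against 59.2, 64.9 and 65.8 RPKM in EB3-0, EB3-1 and EB3-2. The groups overlapped, since C4 was above EB3-0. The log2 difference of -0.17 ± 0.10 had an interval of -0.41 to 0.06 (limma, adjusted p = 0.432). The Klf4 transcript (chr4:55540009-55545347) has 6 stretches of 248 to 965 bases with identities of 91.6% to 96.8% elsewhere in the genome, the longest on chromosome 9, so its value is less certain than those of Klf2 and Klf5, for which no stretch of 100 bases at 90% identity was found.

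**Figure D1:**
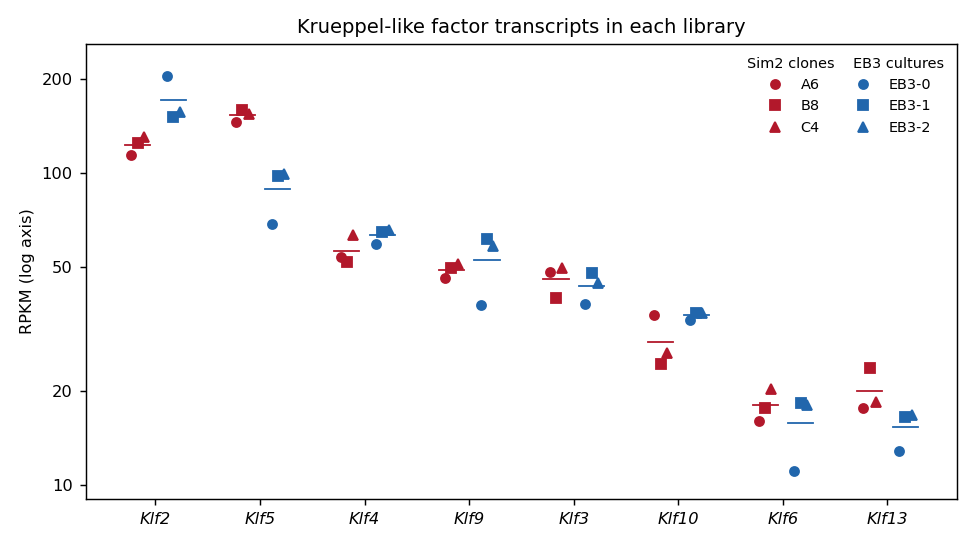
RPKM of the 8 genes (log axis) in each of the 6 libraries, ordered by the EB3 mean. Red marks are the 3 Sim2 clones, blue marks the 3 EB3 cultures and bars the group means. The clones sit above EB3 for Klf5 and Klf13 and below EB3 for Klf2, and EB3-0 lies away from EB3-1 and EB3-2 for Klf2, Klf5, Klf6, Klf9 and Klf13.

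The other members differed less. Klf13 (chr7:71031237-71083801), which activates the chemokine gene Ccl5 in T lymphocytes and acts in heart development, was at 17.6 RPKM in A6, 23.7 RPKM in B8 and 18.5 RPKM in C4, against 12.8, 16.5 and 16.8 RPKM in EB3-0, EB3-1 and EB3-2. The clones were all above EB3, but A6 exceeded EB3-2 by under 1 RPKM. The log2 difference was 0.36 ± 0.15, with an interval of 0.01 to 0.71 (limma, adjusted p = 0.265), and without EB3-0 it was 0.24 ± 0.13 (adjusted p = 0.306). It was 0.24 without B8, the highest clone, and 0.13 with the trends of each library in cDNA length and GC content removed, where the interval of -0.09 to 0.36 includes 0. Klf13 has 4 stretches of 263 to 710 bases at 92.6% to 94.9% identity elsewhere.

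Klf10 (chr15:38224168-38230462), an early gene of TGF-beta signalling, was at 35.2 RPKM in A6, 24.5 RPKM in B8 and 26.5 RPKM in C4, while EB3-0, EB3-1 and EB3-2 were at 33.9, 35.5 and 35.5 RPKM. Here the EB3 cultures were tight and the clones were not: B8 and C4 were below EB3 and A6 was within its range. The log2 difference was -0.30 ± 0.14 (limma, adjusted p = 0.304). Without A6 it was -0.45, which also missed the threshold, and without B8 -0.19.

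Klf3 (chr5:65194762-65221368) ranged from 39.8 to 49.7 RPKM in the clones and from 37.9 to 47.7 RPKM in EB3, and Klf6 (chr13:5860735-5869639) from 16.01 to 20.3 RPKM and from 11.1 to 18.3 RPKM. Klf9 (chr19:23215716-23241401), a gene induced by glucocorticoids and thyroid hormone, was at 46.2 to 51.1 RPKM in the clones and at 37.7 RPKM in EB3-0, 61.3 RPKM in EB3-1 and 58.6 RPKM in EB3-2. The 3 clones thus lay between EB3-0 and the other EB3 cultures. Log2 differences were 0.08 ± 0.12 for Klf3, 0.21 ± 0.19 for Klf6 and -0.07 ± 0.17 for Klf9 (limma, adjusted p = 0.781, 0.623 and 0.870). All 3 depended on EB3-0: without it the values were -0.01 ± 0.11, -0.02 ± 0.11 and -0.29 ± 0.07, and that of Klf9 had an adjusted p of 0.0659. Klf9 shares 121 bases with the microRNA gene Mir1192 on the same strand.

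By count, 0 of the 8 genes passed the adjusted threshold in limma with all libraries, against 0.699% of tested genes, and 0 with limma voom on the recovered reads. At an unadjusted p under 0.05 there were 3 of 8 (Klf2, Klf5 and Klf13), against 17.8% of tested genes. The groups did not overlap for the same 3 genes, Klf5 and Klf13 higher and Klf2 lower, against 26.1% of tested genes in either direction. With 8 genes, no result is drawn from these shares. Of the 8, 4 had a positive and 4 a negative difference, and the median over all tested genes was -0.01.

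**Figure D2:**
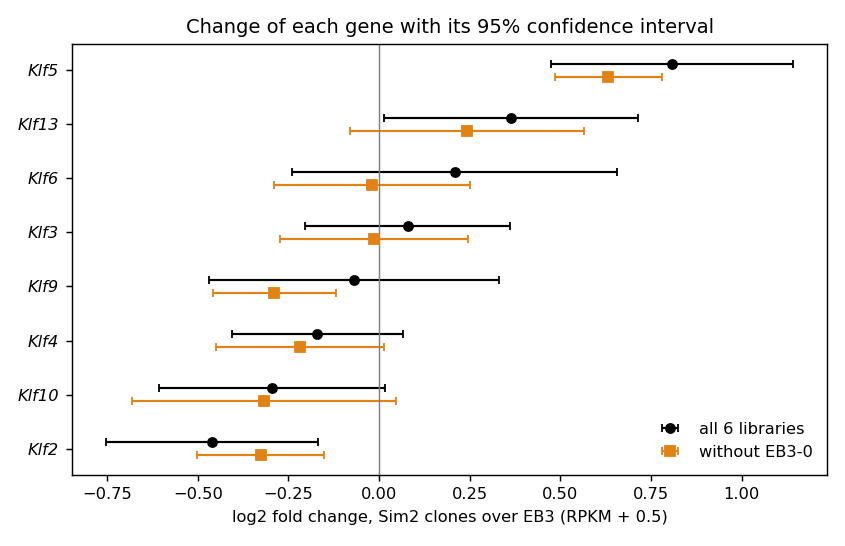
Log2 fold change of each gene, Sim2 clones over EB3, with its 95% confidence interval from limma, for all 6 libraries (black) and without EB3-0 (orange). Klf5 stays above 0 and Klf2 below 0 in both fits, Klf9 moves from -0.07 to -0.29, and the interval of Klf5 narrows.

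EB3-0 differed from EB3-1 and EB3-2 with the length of the cDNA. Over genes with a cDNA of up to 1500 bases its median log2 difference from their mean was 0.30, and over genes above 4500 bases it was -0.36. Klf2 (1816 bases) and Klf5 (1725 bases) are in the same length class, where the median was 0.18 and the 10th and 90th percentiles were -0.23 and 0.44. Within it Klf2 was at 0.40 and Klf5 at -0.53 in EB3-0, which is outside that range. Klf6 (-0.69) and Klf9 (-0.66) were also below the 10th percentile of their class, -0.50, while Klf3, Klf4, Klf10 and Klf13 were inside theirs. With the trend in length removed from each library, Klf5 was at 0.85 (limma, adjusted p = 0.0468) and Klf2 at -0.42 (adjusted p = 0.0786). With the trends in length and GC content removed, Klf2 was at -0.53 (adjusted p = 0.0374) and Klf5 at 0.75 (adjusted p = 0.107). Which member passed thus depended on this choice.

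**Figure D3:**
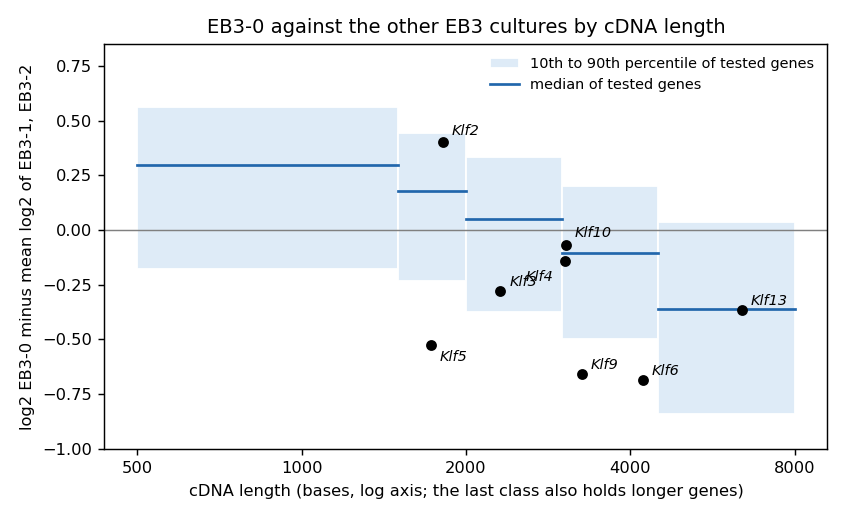
Difference of EB3-0 from the mean of EB3-1 and EB3-2 on the log2 scale (vertical axis) against cDNA length (log axis). Blue lines and bands are the median and the 10th to 90th percentiles of tested genes in 5 length classes, and points are the 8 genes. Klf5, Klf9 and Klf6 lie under their bands and Klf2 lies near the top of its band.

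The order of the levels was the same in both groups except at its top and its bottom. In EB3, Klf2 was followed by Klf5, Klf4, Klf9, Klf3, Klf10, Klf6 and Klf13. Klf2 and Klf5 did not overlap, nor did Klf5 and Klf4, but Klf4 with Klf9, Klf9 with Klf3, and Klf6 with Klf13 did. In the clones, Klf5 was followed by Klf2, Klf4, Klf9, Klf3, Klf10, Klf13 and Klf6, and only Klf9 with Klf3 and Klf13 with Klf6 overlapped among neighbours. The ratio of Klf5 to Klf2, chosen after its values were seen, stood at 1.28 (A6), 1.27 (B8) and 1.18 (C4), against 0.334 in EB3-0, 0.644 in EB3-1 and 0.631 in EB3-2. Klf5 exceeded Klf2 in every clone and in no EB3 culture.

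The summed level of Klf2, Klf4 and Klf5 was 314 RPKM in A6, 337 RPKM in B8 and 349 RPKM in C4, and 333, 315 and 323 RPKM in EB3-0, EB3-1 and EB3-2. The 2 groups overlapped through A6, with means of 333 ± 17.5 RPKM and 324 ± 8.81 RPKM (SD, n = 3 each). Their difference of 9.89 RPKM was below the SD of the clones but above that of EB3. The Klf5 and Klf2 values of the groups did not overlap. Klf5 made up 44.3% to 47.4% of the sum in the clones and 20.6% to 31.1% in EB3. Klf2 made up 36.4% to 37.5% in the clones and 48.3% to 61.6% in EB3, and Klf4 15.4% to 18.2% and 17.8% to 20.6%. The 8 genes together summed to 478 to 515 RPKM in the clones and 466 to 497 RPKM in EB3. All 17 Klf genes summed to 565 to 596 RPKM and 542 to 586 RPKM. Shares of a sum are tied to each other, and proteins were not measured.

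**Figure D4:**
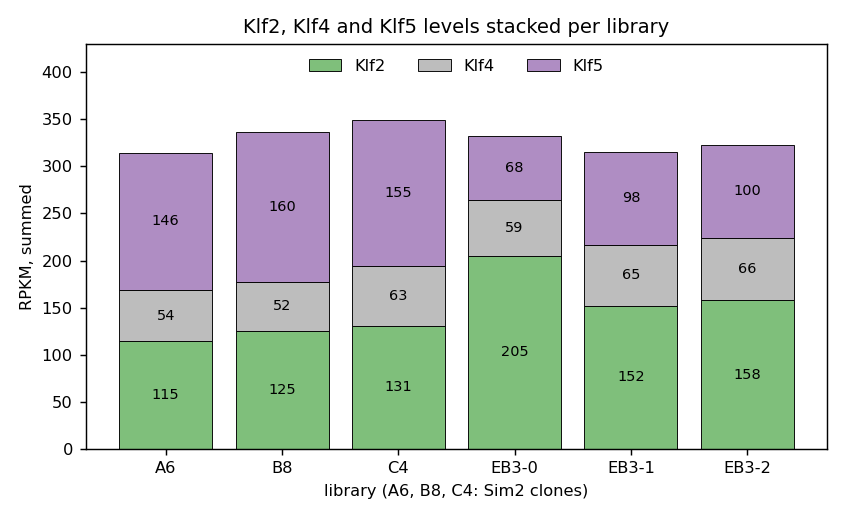
RPKM of Klf2, Klf4 and Klf5 stacked for each library, with the value of each gene printed in its bar. The totals run from 314 to 349 RPKM in the clones and from 315 to 333 RPKM in EB3, while the Klf5 part is larger and the Klf2 part smaller in every clone.

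Klf5 lies on a part of chromosome 14 where most genes were higher in the clones, so its difference was set beside that of its neighbours. Of the 21 tested genes that start within 10 Mb of its start, 17 were higher in the clones, and their median log2 difference was 0.18, with a range from -0.45 to 0.64. To the left this window held only Gm5088, Mzt1, 6720463M24Rik, Dis3 and Pibf1. Its lower genes, Pou4f1, Rnf219, Gm17066 and Trim52, all lie to the right. Beyond it, from Mir17hg (15.7 Mb right) to Tmtc4 (23.6 Mb right), every tested gene but Mbnl2 (0.005) was lower, down to -1.36 (Zic2). Klf5 thus lies near the right end of the part with mostly higher genes, and the window's median mixes both directions. Klf5 at 0.81 was above all 21 neighbours and exceeded their median by 0.63. With the trends of each library in cDNA length and GC content removed, that excess was 0.39. Taken clone by clone against the EB3 mean, Klf5 exceeded the neighbours' median by 0.67 in A6, 0.58 in B8 and 0.64 in C4. Against EB3-1 and EB3-2 alone it did so by 0.59, 0.44 and 0.48, and no neighbour in this window was above it in any clone. With EB3-0 so left out, clone A6 had a neighbours' median of -0.02, while B8 stood at 0.25 and C4 at 0.16. The neighbours within 10 Mb thus showed no upward shift in A6 without EB3-0. Within 5 Mb all 13 tested genes were higher in the clones by the group means, with a median of 0.22. Without EB3-0 that median stayed positive, at 0.11 (A6), 0.26 (B8) and 0.22 (C4). Over a longer stretch, from 30 Mb left to 7 Mb right of Klf5 and chosen after the data were seen, the median of 88 genes was 0.35 and 6 of them were above Klf5. With EB3-0 left out of the reference, 14, 18 and 8 of those 88 genes were above Klf5 in A6, B8 and C4. The medians of the 88 were then 0.30 (A6), 0.33 (B8) and 0.36 (C4). The 3 clones share one parental line and one control mean, and DNA copy number was not analysed here.

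The nearest tested genes differed less than Klf5. To its left, Pibf1, a centrosomal protein gene whose listed start is at -199 kb, was at 0.34 ± 0.13, Dis3, an exosome ribonuclease gene, at 0.18 ± 0.09 and 6720463M24Rik at 0.25 ± 0.09. In all 3 every clone lay above every EB3 culture, and none passed the threshold (limma, adjusted p = 0.224, 0.329 and 0.196). To its right, Klf12, another family member and a repressor that recruits CtBP, starts 572 kb away. Klf12 was at 6.59 RPKM in A6, 6.37 RPKM in B8 and 6.86 RPKM in C4, against 1.86 RPKM in EB3-0, 6.35 RPKM in EB3-1 and 6.505 RPKM in EB3-2. Its log2 difference of 0.55 ± 0.38 (limma, adjusted p = 0.492) rests on EB3-0, and the clones overlapped the other EB3 cultures. Commd6 (0.22 ± 0.14) and the deubiquitinase gene Uchl3 (0.17 ± 0.09) follow, with groups that overlapped. Within EB3, EB3-0 stood at -0.53 from the other cultures for Klf5 and at -0.21 for the median of its neighbours within 10 Mb (log2).

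**Figure D5:**
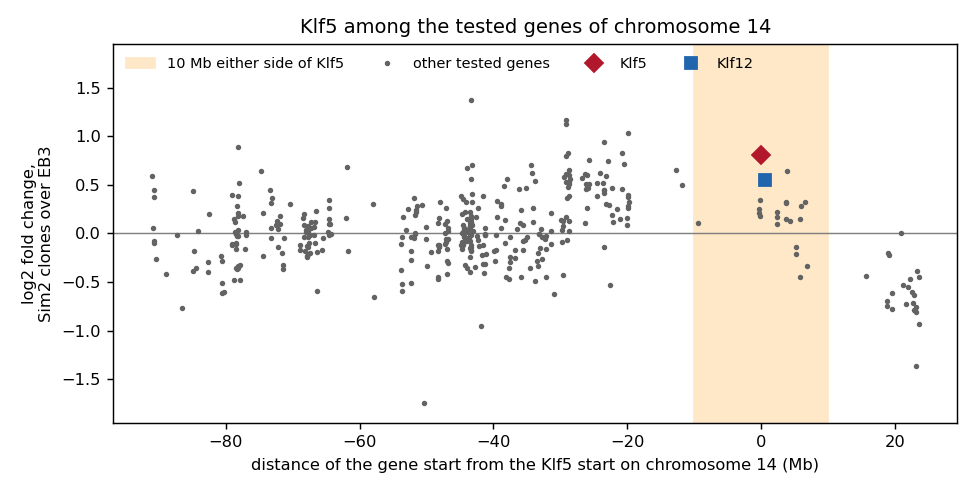
Log2 fold change, Sim2 clones over EB3, of every tested gene of chromosome 14 against the distance of its listed start from that of Klf5. The shaded band is 10 Mb either side, where Klf5 (0.81) is above its 21 neighbours, whose median is 0.18, and Klf12 (0.55) lies beside it.

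Of the other 9 Klf genes in the table, 6 were tested, 3 with positive and 3 with negative differences, and 0 were called (limma). At an unadjusted p under 0.05 there were also 0. Their median was 0.02, against -0.01 over all tested genes. Klf15, a regulator of metabolism in liver and muscle, was at 12.4 to 14.03 RPKM in the clones and at 14.3 to 17.9 RPKM in EB3, with a difference of -0.25 ± 0.12 (limma, adjusted p = 0.309). Klf1, the erythroid factor, Klf14 and Klf17 were under the filter, at no more than 0.788 RPKM in any library. Klf17 was at 0 to 0.111 RPKM in the clones and at 0.229 to 0.346 RPKM in EB3, too low to read as a change.

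Of the 9 related SP genes, 6 were tested, 3 in each direction, with a median of -0.05 and 0 called (limma). At an unadjusted p under 0.05 there was 1 of the 6, against 17.8% of all tested genes: Sp5, a direct target of Wnt signalling. Sp5 was at 1.77 RPKM in A6, 1.17 RPKM in B8 and 4.44 RPKM in C4, against 4.44 to 4.80 RPKM in EB3, a difference of -0.95 ± 0.35 (adjusted p = 0.214). C4 lay at the EB3 level. Sp6 had -0.16 ± 0.18.

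The other lists were the genes upstream of the Krueppel-like factors, their partners and their targets, and in all of them 0 genes were called (limma). Of 10 genes of the LIF and STAT3 pathway, 7 were higher, with a median of 0.12. The 2 with an unadjusted p under 0.05 were both higher in every clone than in every EB3 culture: Pim3, a survival kinase gene induced by STAT3, with 0.30 ± 0.10 (adjusted p = 0.200), and Jak1, the kinase bound to the LIF receptor, with 0.33 ± 0.12 (adjusted p = 0.207). Pim3 lies on chromosome 15, and its neighbours there were not examined. Over all 11595 tested genes, 5694 were higher. Of all tested genes, 17.8% had an unadjusted p under 0.05 and 26.1% had groups without overlap, so no result is drawn from these counts. Of 6 tested TGF-beta pathway genes 5 were higher, with a median of 0.11, and the smallest p values belonged to Smad4 (0.13 ± 0.10) and Smad7 (0.14 ± 0.13).

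Among 9 cofactors the median was 0.02. Ep300, an acetyltransferase that acts on KLF proteins, was at 34.1 to 41.0 RPKM in the clones and at 14.3 RPKM in EB3-0, 29.4 RPKM in EB3-1 and 30.2 RPKM in EB3-2, a difference of 0.67 ± 0.26 (limma, adjusted p = 0.229). Its cDNA is 8749 bases long, in the class where EB3-0 is low. Ep300, like Pim3, lies on chromosome 15, and its neighbours were not examined. The deacetylase gene Hdac2 had -0.18 ± 0.08. Among 5 tested ubiquitin ligase genes the median was -0.02, and Fbxw7, whose protein marks KLF5 for degradation, had -0.12 ± 0.12, and Btrc 0.14 ± 0.16.

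Of 10 tested pluripotency factors 6 were lower, with a median of -0.08. Zfp42 (Rex1), a marker of undifferentiated ES cells, was at 415 to 439 RPKM in the clones and at 511 to 536 RPKM in EB3, a difference of -0.31 ± 0.09 (limma, adjusted p = 0.145) with no overlap. Of 5 described targets of KLF2, KLF4 and KLF5 in ES cells 4 were higher, with a median of 0.16. They included the nuclear receptor gene Esrrb at 0.31 ± 0.16 and the NODAL antagonist gene Lefty1 at 0.39 ± 0.17. For Esrrb, B8 (450 RPKM) was far above A6 and C4 (299 and 308 RPKM). Esrrb lies on chromosome 12, and its neighbours there were not examined. Nanog, Esrrb and Tbx3 are on both the list of targets and that of pluripotency factors. Among all 11595 tested genes, 5694 were higher.

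All 5 ES cell markers were expressed, and their summed level was 2847 to 3072 RPKM in the clones and 3014 to 3353 RPKM in EB3. Of the markers of other cells, 1 was called: Otx2, of the primed epiblast, at 2.71 to 3.24 RPKM in the clones and at 9.93 to 12.96 RPKM in EB3 (limma, adjusted p = 0.00378). The 4 primed epiblast and mesoderm markers summed to 3.53 to 4.25 RPKM in the clones and 10.6 to 14.3 RPKM in EB3, and the 4 primitive endoderm markers to 3.12 to 3.97 RPKM and 1.93 to 2.50 RPKM. Only 1 gene of each list was tested, Otx2 and Sox7, and each was the largest part of its sum. Fgf5, T and Mixl1 were under 1 RPKM and overlapped between groups, with Fgf5 and T slightly higher in the clones by their means. Sox7 overlapped too (means of 1.90 and 1.23 RPKM, limma, adjusted p = 0.268). Gata4 and Sox17, both under 1 RPKM, were higher in the clones without overlap, and Gata6 overlapped. The part of either list in the Klf2 and Klf5 values was not tested. The summed levels of the trophoblast and of the neural markers overlapped between groups, although Cdx2 was higher (0.470 to 0.660 RPKM in the clones, 0.273 to 0.418 RPKM in EB3) and Elf5 lower (at most 0.0540 RPKM in the clones) without overlap, both too low to be tested. The 5 fibroblast markers summed to at most 0.236 RPKM in any library, with Lum listed at 0 in all.

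Over the 6 libraries, the tested genes whose log2 levels were most like Klf5 were Espl1, the gene for separase (Pearson's r = 0.998), and Zfp41 (r = 0.995), both higher in the clones with no overlap. For Klf2 they were Nupr1, a stress response gene (r = 0.996), Hax1 (r = 0.995) and Nars, an asparaginyl-tRNA synthetase gene (r = 0.995), all 3 lower with no overlap. For Klf4 they were BC088983 (r = 0.990), 2310008H04Rik (r = 0.988) and Dbf4, a regulator of replication origin firing (r = 0.988). These r are a description over 6 points that share the group difference and the place of EB3-0. Espl1 and Zfp41 both lie on chromosome 15, and their neighbours were not examined. As many as 428 tested genes had r above 0.9 with Klf5, 255 with Klf2 and 90 with Klf4.

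The genes were also looked up on the lists of genes linked to SIM2-bound regions. Klf3, Klf4, Klf5, Klf9 and Klf13 are on the list of genes nearest to a SIM2 site (5 of 8, against 10.1% of tested genes), and Klf2, Klf6 and Klf10 are not. In the study, a site in an intron or between genes was given to the nearest gene on each side. The promoters of Klf5, Klf10 and Klf13 are on the list of those that contact a bound region (3 of 8, against 2.08% of tested genes). The study took these contacts from published data on RNA polymerase II in mouse ES cells, not from these clones, and some join different chromosomes. Klf5 (log2 difference 0.81) and Klf13 (0.36) are on both lists, and Klf2 (-0.46) and Klf6 (0.21) are on neither. Klf10 (-0.30) is on the list of contacts only. Klf3 (0.08), Klf4 (-0.17) and Klf9 (-0.07) are on the list of nearest genes only. Whether a place on a list goes with a direction was not tested. The binding data were not analysed here.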

How the data were processed

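mRNA sequencing libraries of 3 Sim2 clones and 3 EB3 cultures were compared. The authors aligned paired reads to mm9 with BWA at default settings, computed exon coverage per RefSeq gene with their own pipeline and deposited RPKM values, per cDNA length. All 6 columns of values were used (0 unused). The study tested counts, but the deposited unit is RPKM. Therefore log2(RPKM + 0.5) was fitted with limma 3.58.1 (trended variance, R 4.3.3) over the 11595 genes with a mean of at least 1 RPKM. Benjamini-Hochberg adjustment was over all of them. The fit was also run on simulated data with independent noise. Those data had no length trend of EB3-0 and no shifts of chromosome stretches, so the effect of these on the calls was not tested. Called means an adjusted p under 0.05. The EB3 cultures are described as independent, and p-values measure the spread between these libraries. RPKM multiplied by length gave whole reads for 100% of values (tolerance 0.1), and the members had 1276 or more reads each. Exact permutation tests (SciPy 1.17.1) were 2-sided. Named were the 8 members, Sim2, from each list the called genes or else the 2 with the smallest p, the 3 nearest tested genes on each side of Klf5, and the 3 genes most correlated with each of Klf2, Klf4 and Klf5, of which 1 is not reported here. Members and lists were chosen with earlier results of these data known. Copies were sought with BLAST 2.17.0 in the mm9 genome (at least 100 bases at 90% identity). Coordinates are those deposited, with starts counted from 1. Alternatives were other pseudocounts, filters, scalings, length and GC trends, voom on recovered reads, other windows and leaving out each library.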

Additional observations from a re-analysis of the deposited data

How the results depend on the processing

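The count of members called was 0 in most settings. It was 1 (Klf5, 0.85) with the trend of each library in cDNA length removed and 1 (Klf2, -0.53) with those in length and GC content removed, and leaving out 1 library gave 0 to 1, the 1 being Klf5 without EB3-0. Over all genes 6 to 694 were called when 1 library was left out, 694 without EB3-0, and 6 with EB3-1 and EB3-2 averaged as 1 library. There were 23 calls with no filter on low values, 30 without a variance trend, 250 with the length trend removed and 187 with both trends removed. Klf5 ranged over all settings from 0.63 to 0.90 and Klf2 from -0.54 to -0.33. Klf4, Klf10 and Klf13 also kept their direction, and none of them was called, with Klf13 at 0.13 to 0.44. Klf3 changed sign without EB3-0 (-0.0139, leave-one-out range -0.0139 to 0.178), as did Klf6 (-0.0201, range -0.0201 to 0.330). Klf9 changed sign with EB3-1 and EB3-2 averaged (0.0409) and ranged from -0.289 to 0.0574 with 1 library left out. The excess of Klf5 over its chromosome 14 neighbours, 0.631, was 0.453 for genes from 30 Mb left to 7 Mb right of it and 0.697 with no filter. It was 0.390 with length and GC trends removed, and 0.505 (without EB3-0) to 0.648 with 1 library left out. The cause of these moves was not tested. The summed level of Klf2, Klf4 and Klf5 differed by 0.0434 (log2), and by 0.00920 to 0.0839 with 1 library left out. Without A6, the 0.0839, the sums of the groups no longer overlapped (337 and 349 RPKM against 315 to 333 RPKM). That stretch, and the average of EB3-1 and EB3-2 for the neighbours, were chosen after seeing the data. No paired analysis was possible because the groups share no replicate numbers. With 3 libraries a group, real differences can be missed. The intervals are not adjusted for the number of genes and do not mark what could be called. Those of Klf5, Klf2 and Klf13 excluded 0, and none of these genes was called with all 6 libraries.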
